A study of Mus musculus with 9 samples.

Results

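Untreated cultures of the mouse melanoma line B16F10 were compared with untreated CD8+ T cells from mouse spleen, gene by gene, in 5 of the 9 RNA sequencing libraries of the study. The libraries were chosen by their labels alone. The 3 B16F10 libraries and 2 T cell libraries came from cells given 0 µM hypochlorous acid (HOCl) for 5 h, and the libraries from HOCl-treated cells of either type were left out. B16F10 is an established line from a melanoma of the C57BL/6 strain, and was grown on plates for 4 days. The T cells were prepared with a CD8a+ isolation kit from the spleens of adult mice of the same strain. The labels name no transgene or deletion in either group, and give neither the number nor the sex of the mice. Nothing in the labels says that libraries of a group came from separate cultures or mice, so each p-value sets the cell types against a spread among these libraries that may be technical only. Cell type, tumour origin, growth on plastic and fresh isolation differ together between the groups and cannot be told apart.

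Melanocytes make melanin from tyrosine inside melanosomes, with enzymes that the transcription factor MITF switches on together with SOX10 and PAX3. A resting CD8+ T cell instead carries the T cell receptor with its CD3 chains, homing receptors for lymph nodes, and factors that hold it out of the cell cycle. Dividing tumour cells are known for high glycolysis, lipid and nucleotide synthesis, and for strong peroxide and protein-folding defences, whereas resting lymphocytes are small cells with little of this synthesis.

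The B16F10 libraries held 45895352 to 61347337 counts and the T cell libraries 49934172 and 52087754, with a count for 22855 to 25907 genes. Values are counts-per-million (CPM) scaled by edgeR's trimmed mean of M values (TMM), so they are shares of a library's RNA, and fewer cells of a type cannot be told apart from less RNA per cell. Mitochondrial transcripts took 0.509 to 0.711% of the counts in B16F10 and 1.55 and 2.11% in T cell libraries 1 and 2. Across genes, the log2 CPM of the B16F10 libraries correlated with each other at r = 0.997 to 0.998, those of the T cell libraries at r = 0.972, and those of the different cell types at r = 0.688 to 0.694. The T cell libraries thus lay farther apart than the B16F10 libraries, and each is given on its own throughout. Of the 690 called members of the gene lists, 102 moved by over 1.5-fold without T cell library 1 and 103 without library 2, against 9 to 27 without a B16F10 library. In every pair of values for T cells, library 1 comes before library 2. Library and replicate numbers are the same. Differences are log2 values of B16F10 over T cells, positive where B16F10 was higher. They are given with the standard error (SE) and the p of the quasi-likelihood test in edgeR, adjusted over 18352 genes by the Benjamini-Hochberg method. Differences against a T cell library apart are instead untested log2 ratios of CPM plus 0.5. The added 0.5 makes differences of genes with few counts smaller than the fitted ones.

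The 6 genes that mark the cell types set the frame for the sequences shown here. Of the melanocyte genes, Tyrp1 (a melanosome enzyme) stood at 7959, 8741 and 8817 CPM in the B16F10 libraries and at 30.1 and 8.07 CPM in the T cell libraries. Pmel, which forms the fibrils on which melanin is laid down, stood at 5484, 4921 and 5126 against 42.9 and 10.7 CPM, and Dct, dopachrome tautomerase, at 7730.2, 7258 and 7357 against 24.8 and 6.17 CPM. The reverse held for the T cell genes. Cd8a, the co-receptor chain used for the isolation, stood at 0.244, 0.195 and 0.285 CPM in B16F10 and at 479 and 417 CPM in the T cells. Cd3e, a signalling chain of the T cell receptor, stood at 0.107, 0.176 and 0.143 against 333 and 235 CPM, and Il7r, the IL7 receptor chain that keeps resting T cells alive, at 0.81, 0.879 and 0.917 against 1622 and 1802 CPM. The groups did not overlap for any of the 6 genes, and all 5 libraries carried the markers of their label.

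Promoters of pigment genes and of a CD3 chain are printed because these genes moved together and because the letters known to bind their lineage factors can be seen in them. MITF is known to bind the letters TCATGTG in promoters of pigment genes. Of the factors active in T cells, the ETS family is known to bind AGGAAG, the TCF and LEF factors are known to bind CTTTGA, and the RUNX family is known to bind TGTGGT. The sequences are from RefSeq (GRCm38.p6), run from 250 bases before to 50 bases after each gene's start, are given 5′ to 3′ on the gene's strand, and have in capitals every match, on either strand, of the MITF motif (pigment genes) or of the 3 T cell motifs (Cd3d). Position 0 is the first base after the 250.
Tyrp1, chr4:80833963-80834262, plus strand: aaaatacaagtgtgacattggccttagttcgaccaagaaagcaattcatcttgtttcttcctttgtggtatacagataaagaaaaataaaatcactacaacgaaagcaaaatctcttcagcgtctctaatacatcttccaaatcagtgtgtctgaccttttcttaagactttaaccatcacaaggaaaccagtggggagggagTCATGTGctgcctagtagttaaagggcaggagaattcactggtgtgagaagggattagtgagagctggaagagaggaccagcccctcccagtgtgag
Tyr, chr7:87493463-87493762, minus strand: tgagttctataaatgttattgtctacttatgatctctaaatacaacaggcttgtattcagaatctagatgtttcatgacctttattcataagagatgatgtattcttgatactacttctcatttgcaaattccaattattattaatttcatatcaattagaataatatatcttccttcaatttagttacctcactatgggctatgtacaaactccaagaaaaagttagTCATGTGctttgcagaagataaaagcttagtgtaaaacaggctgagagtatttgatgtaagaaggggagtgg
Dct, chr14:118052197-118052496, minus strand: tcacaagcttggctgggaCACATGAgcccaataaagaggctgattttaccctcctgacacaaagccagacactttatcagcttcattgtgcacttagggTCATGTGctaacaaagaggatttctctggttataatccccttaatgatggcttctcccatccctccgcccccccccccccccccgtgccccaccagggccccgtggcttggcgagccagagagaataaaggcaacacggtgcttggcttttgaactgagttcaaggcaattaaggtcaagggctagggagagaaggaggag
Cd3d, chr9:44981536-44981835, plus strand: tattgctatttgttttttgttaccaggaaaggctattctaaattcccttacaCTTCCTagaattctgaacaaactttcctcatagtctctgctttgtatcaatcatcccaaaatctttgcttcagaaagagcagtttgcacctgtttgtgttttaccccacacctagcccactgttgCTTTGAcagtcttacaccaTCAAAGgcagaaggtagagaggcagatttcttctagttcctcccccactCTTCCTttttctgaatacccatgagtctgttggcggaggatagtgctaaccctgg
The capitals lay at -47 to -41 in Tyrp1 and at -22 to -16 in Tyr. Dct held them at -151 to -145 and, on the other strand, at -232 to -226. In Cd3d, AGGAAG stood on the other strand at -198 to -193 and at -5 to 0, and CTTTGA at -73 to -68 and, on the other strand, at -54 to -49.

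Among the 18 pigment genes listed, 12 had a RefSeq promoter window, and 6 of the 12 held TCATGTG on either strand, against 4.31% of 27025 genes with a window. The shorter CATGTG, which lies within it, was in 7 of 12 (58.3%) against 15.9%, and CACGTG in 3 of 12 (25.0%) against 8.09%. Of the 20 genes of the T cell receptor and its signalling, 14 had a window. AGGAAG was in 11 of the 14 (78.6%) against 38.4% of all windows, the TCF motif CTTTGA in 7 of the 14 against 18.2%, and the RUNX motif TGTGGT in 4 of 14 (28.6%) against 18.9%. TCATGTG was in 0 of these 14 windows. The list of CD8 and naive T cell genes, with 14 windows of its own, held AGGAAG in 7 of them. It held the TCF motif in 2 (14.3%) and the RUNX motif in 2 (14.3%), both smaller shares than in all windows. Of the 12 pigment gene windows, 4 (33.3%) held the RUNX motif, 2 (16.7%) the TCF motif and 5 (41.7%) the ETS motif. The window of Cd8a held none of the 3 T cell motifs, which says only that these letters were not in those 300 bases. That of Cd3e held AGGAAG alone, and that of Il7r held AGGAAG and TGTGGT. The TCF motif CTTTGA, present in the printed Cd3d window, was thus absent from the windows of Cd8a, Cd3e and Il7r. A match is a description and no evidence of binding.

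All 18 pigment genes were higher in B16F10, against a background of 35.8% of all genes tested that were higher and 35.4% that were lower. Their median log2 difference was 8.30, against -0.02 over all genes, and it was 7.05 when taken against T cell library 1 and 7.70 against library 2. Tyrp1 was among them (log2 difference 8.80, SE 0.81, adjusted p = 0.000235), and against the libraries apart the difference was 8.12 and 9.96. Tyr, tyrosinase itself, had 10.5 CPM per kilobase of exon (RPKM) in B16F10 against 3008 for Tyrp1, and stood at 70.3, 80.4 and 72.6 CPM against 0.382 and 0.0446 CPM (log2 difference 8.41, SE 0.63, adjusted p = 0.000103). Mlana, a melanosome protein recognised by anti-tumour T cells, stood at 1298, 1128 and 1119 against 3.58 and 0.736 CPM (log2 difference 9.09, adjusted p = 0.000239). Gpnmb, a glycoprotein related to Pmel, stood at 8238, 8070.4 and 8289 against 27.5 and 7.6 CPM (log2 difference 8.87, adjusted p = 0.000209). In each of these genes the T cell values were a small trace of the B16F10 values, and T cell library 1 held more of it than library 2. Tyr passed the count filter through B16F10 alone, and so did Gpr143 of the same list, so their direction was fixed beforehand.

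Genes for melanosome transport and pH were part of the same group. Gpr143, the ocular albinism receptor of melanosomes, stood at 42.5, 37.2 and 42.9 CPM in B16F10 against 0.0848 and 0 CPM. Slc45a2, a melanosome transporter, stood at 564, 547 and 566 against 1.97 and 0.357 CPM, and Bace2, the protease that cuts Pmel, at 393, 369 and 388 against 1.04 and 0.357 CPM (log2 difference 9.09, adjusted p = 3.86e-05). None of these groups overlapped. Rab27a, which tethers melanosomes and also serves granule release in T cells, differed less, at 251, 265 and 267 against 44.7 and 35.5 CPM (log2 difference 2.703, SE 0.18, adjusted p = 5.7e-05). Dstyk, a kinase with a role in pigment cells, had the smallest difference on the list, at 127, 150.2 and 154 against 41 and 27.3 CPM (log2 difference 2.07, adjusted p = 0.000529).

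Per length of transcript Tyrp1 was the highest of all protein-coding genes that were at least 4-fold higher in B16F10, at a mean of 3008 RPKM, followed by Pmel (2259), Dct (1264), Gpnmb (1259) and Mlana (1118). The next on that scale were Ftl1 (957, the ferritin light chain), Gapdh (934, a glycolytic enzyme), Lgals1 (863, a galectin), Mif (805, a cytokine and tautomerase), Hsp90aa1 (631, a chaperone) and Serpinh1 (599, the collagen chaperone). The 5 highest genes were thus melanosome genes. Of the genes at least 4-fold lower in B16F10, those with the highest RPKM in T cells were mt-Co1, Tpt1 and 10 ribosomal protein genes.

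The transcription factors of the melanocyte lineage were higher with their targets. Mitf stood at 299.5, 344 and 340.4 CPM in B16F10 and 3.41 and 3.3 CPM in T cells (log2 difference 6.61, SE 0.20, adjusted p = 8.33e-06). Sox10 stood at 492, 531 and 529.8 against 1.74 and 0.669 CPM (log2 difference 8.74, adjusted p = 4.24e-05), and Pax3 at 262, 277 and 274 against 1.14 and 0.267 CPM (log2 difference 8.57, adjusted p = 9.88e-05). The T cell values of Mitf lay close together, while library 1 was the higher for Sox10 and Pax3. Met, the receptor for hepatocyte growth factor, was also higher (208, 256 and 263 against 1.57 and 0.58 CPM). Of the 12 genes on this list 11 were tested, 9 were higher and 2 were lower, with a median of 6.61.

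Kit and Lef1 were the listed genes that went the other way. Kit, the stem cell factor receptor on which normal melanocytes depend, stood at 0.932, 1.05 and 0.958 CPM in B16F10 and 20.9 and 22.8 CPM in the T cells (log2 difference -4.48, SE 0.22, adjusted p = 2.04e-05). Lef1, which acts with MITF in melanocytes and with TCF1 in T cells, stood at 0.29, 0.254 and 0.306 against 562 and 890.3 CPM (log2 difference -11.31, SE 0.33, adjusted p = 8.33e-06). Ednrb, the endothelin receptor of melanoblasts, had too few counts to be tested, at 0, 0 and 0.0408 CPM in B16F10 and 0 in both T cell libraries, which allows up to 0.0669 CPM by counting error alone.

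**Figure D1:**
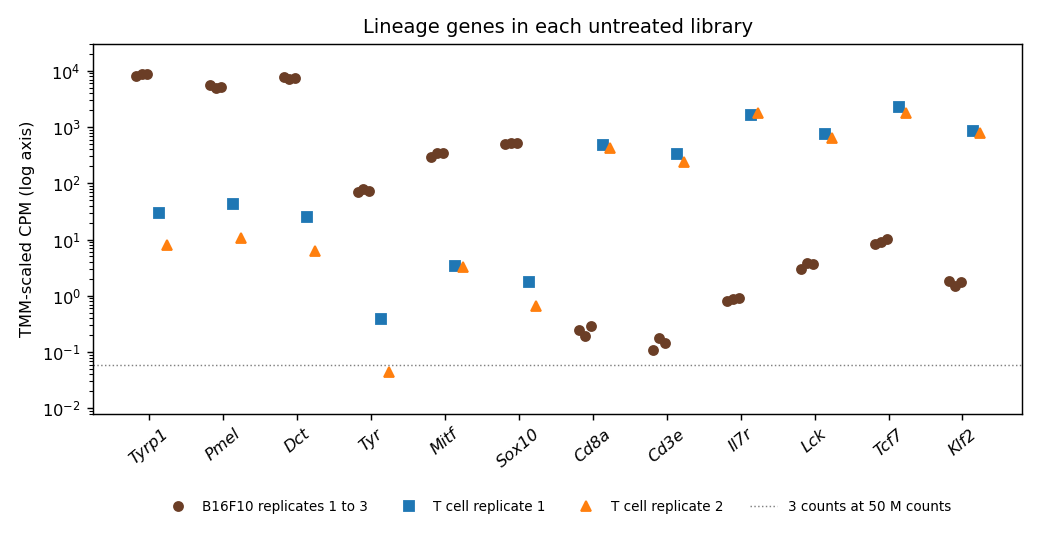
TMM-scaled CPM (log axis) of melanocyte and T cell genes in each library, with circles for the 3 B16F10 libraries, a square and a triangle for T cell libraries 1 and 2, and a dotted line at the level of 3 counts. Each gene's groups stand apart, and the T cell values of the melanocyte genes lie above the dotted line in both libraries, except Tyr in library 2.

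The T cell receptor list mirrored the pigment list. All 20 of its genes were lower in B16F10, with a median of -10.82, and 19 of them by at least 4-fold without overlap, against 20.6% of all genes (43.1% in either direction). Cd3d stood at 0.153, 0.176 and 0.245 CPM in B16F10 against 313 and 647 CPM (log2 difference -11.30, SE 0.48, adjusted p = 1.51e-05), so that T cell library 2 held more than library 1. Cd3e ran the other way, with the higher value in library 1 (log2 difference -10.97, SE 0.31, adjusted p = 8.33e-06). Lck, the kinase that starts receptor signalling, stood at 3.06, 3.91 and 3.69 against 750.5 and 645 CPM (log2 difference -7.62, SE 0.21, adjusted p = 8.33e-06). Zap70, the kinase that acts next, stood at 0.0458, 0.0781 and 0.122 against 209.5 and 279 CPM, and Ptprc (CD45), the phosphatase that frees Lck, at 1.44, 1.27 and 1.49 against 2842 and 1503 CPM. The B16F10 values of Cd3d, Cd3e and Zap70 rest on 3 to 12 counts per library, so the size of these differences rests on low counts. These genes, with Cd3g and Txk of the same list, passed the count filter through the T cells alone. Their direction was thus fixed beforehand, and the count of all 20 is in part set by the filter.

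A pair of signalling kinases departed from this. Prkcq, the protein kinase C isoform of the T cell synapse, stood at 164, 169 and 168 CPM in B16F10 and 297 and 286 CPM in the T cells (log2 difference -0.80, SE 0.13, adjusted p = 0.00239), so the melanoma cells held 56.2 to 57.9% of the T cell level. Fyn, a kinase related to Lck, stood at 69.2, 74.9 and 75.3 against 400.5 and 229.7 CPM (log2 difference -2.11, SE 0.25, adjusted p = 0.000655). Both groups were apart without overlap, but by far less than Cd3e, Lck or Zap70.

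Genes of the CD8 and naive state were lower in B16F10 for 17 of 18 members (median -10.69). Of the lower genes, at least Dapl1 passed the count filter through the T cells alone, so its direction was fixed beforehand. Il7r (log2 difference -10.94, SE 0.24, adjusted p = 8.33e-06) and Cd8a (log2 difference -10.84, SE 0.24, adjusted p = 8.33e-06) were among them. Ccr7, the chemokine receptor that draws naive T cells into lymph nodes, stood at 0.321, 0.195 and 0.245 against 628 and 1116 CPM. Tcf7, which encodes TCF1, stood at 8.25, 9.01 and 10.2 CPM in B16F10 and 2240.5 and 1744 CPM in the T cells (log2 difference -7.77, SE 0.25, adjusted p = 9.17e-06). Klf2, which keeps naive T cells quiet and circulating, stood at 1.82, 1.47 and 1.77 against 865 and 795 CPM (log2 difference -8.94, SE 0.21, adjusted p = 8.33e-06).

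Igfbp4, an insulin-like growth factor binding protein listed as a gene of naive T cells, was the exception on that list. It stood at 170.5, 152 and 154 CPM in B16F10 and 11.8 and 11.4 CPM in the T cells (log2 difference 3.78, SE 0.16, adjusted p = 1.4e-05). B16F10 held 1313 to 1472% of the T cell level, and the groups did not overlap. Actn1, an actin crosslinker raised in naive T cells, was lower in B16F10 but present in both, at 135, 142 and 152 against 779 and 592 CPM (log2 difference -2.26, SE 0.18, adjusted p = 0.000133).

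Lymphoid transcription factors followed, with 16 of 18 lower and 2 higher (median -6.70). Of the lower ones, at least Ikzf1, Ikzf3, Tox and Stat4 passed the count filter through the T cells alone, so their direction was fixed beforehand. Ikzf1 (Ikaros) stood at 0.382, 0.137 and 0.102 against 499.5 and 606 CPM, Bcl11b, which fixes T cell identity, at 0.351, 0.313 and 0.326 against 349.98 and 336 CPM (log2 difference -10.01, adjusted p = 8.33e-06), and Satb1, a chromatin organiser of thymocytes, at 0.565, 0.781 and 0.387 against 855 and 1438 CPM. Ets1, a factor of many cell types, was present in both, at 390.2, 437 and 434 against 1404 and 2016 CPM (log2 difference -2.02, adjusted p = 0.000449). Foxp1, which keeps naive T cells at rest, was too, at 56.5, 57.8 and 62.4 against 377 and 490.2 CPM (log2 difference -2.88, adjusted p = 4.32e-05). The factors higher in B16F10 were Id2 and Id3, inhibitors of E proteins in both lineages. Id2 stood at 137, 133 and 132 against 30.9 and 40.9 CPM (log2 difference 1.90, SE 0.18, adjusted p = 0.000247), and Id3 at 68.4, 60.8 and 65.2 against 16.2 and 12.6 CPM (log2 difference 2.17, SE 0.19, adjusted p = 0.000167).

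All 16 tested effector genes of killer cells were lower in B16F10. The fitted median was -8.84, or -5.94 when the 5 genes with no count in B16F10 are set to their bounds. Those 5 genes passed the filter through the T cells alone, and so did at least Nkg7, Prf1 and Gzmb. The direction of all these genes was thus fixed beforehand. Ccl5, a chemokine that memory T cells store, stood at 11, 8.87 and 9.66 CPM in B16F10 and 195 and 223 CPM in the T cells (log2 difference -4.41, SE 0.17, adjusted p = 1.24e-05). Prf1 (perforin) stood at 28.8 and 23.7 CPM and Gzmb (granzyme B) at 4.32 and 13.5 CPM in the T cells, with at most 0.0816 CPM in any B16F10 library. Gzma was at 4.3 and 2.81 CPM, Fasl at 10.4 and 8.05 CPM and Ifng, the gene for interferon gamma, at 0.233 and 0.624 CPM, and these had no count in B16F10. Against a floor of 3 counts per B16F10 library, the T cell means were at least 58.1-fold higher for Gzma, at least 151-fold for Fasl and at least 7.01-fold for Ifng.

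The trace of each cell type's genes in the other was small. Over the 16 pigment genes with at least 10 CPM in B16F10, the median level in T cell library 1 was 0.364% of the B16F10 mean and in library 2 it was 0.0939%, with Dstyk the highest at 28.5% and 19%. In the other direction, the 20 T cell receptor genes stood in B16F10 at a median of 0.0508 to 0.0582% of the T cell mean, with Prkcq the highest. The source of these traces was not tested.

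Lineage genes were part of a difference that reached most of the genes tested. Of the 18352 genes tested, 6561 (35.8%) were higher in B16F10 and 6490 (35.4%) were lower, 71.1% in all. Of these, 4134 (22.5% of those tested) were at least 4-fold higher without overlap and 3773 (20.6%) at least 4-fold lower, 43.1% in all. The median size of a called difference was 2.59 on the log2 scale. Taken against each T cell library apart, 4443 genes (24.2%) were at least 2-fold higher than both and 3600 (19.6%) at least 2-fold lower than both. A further 608 were 2-fold higher against library 1 alone and 742 against library 2 alone. Against library 1 alone 1353 were 2-fold lower, and against library 2 alone 1005. Only 7 were at least 2-fold higher than 1 library and at least 2-fold lower than the other, and smaller changes of direction were not counted. The counts of each gene list are read against these shares. Members of any list that passed the count filter through 1 cell type alone had their direction fixed beforehand. Among all genes tested, 525 had no count in any B16F10 library and 574 had none in any T cell library.

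**Figure D2:**
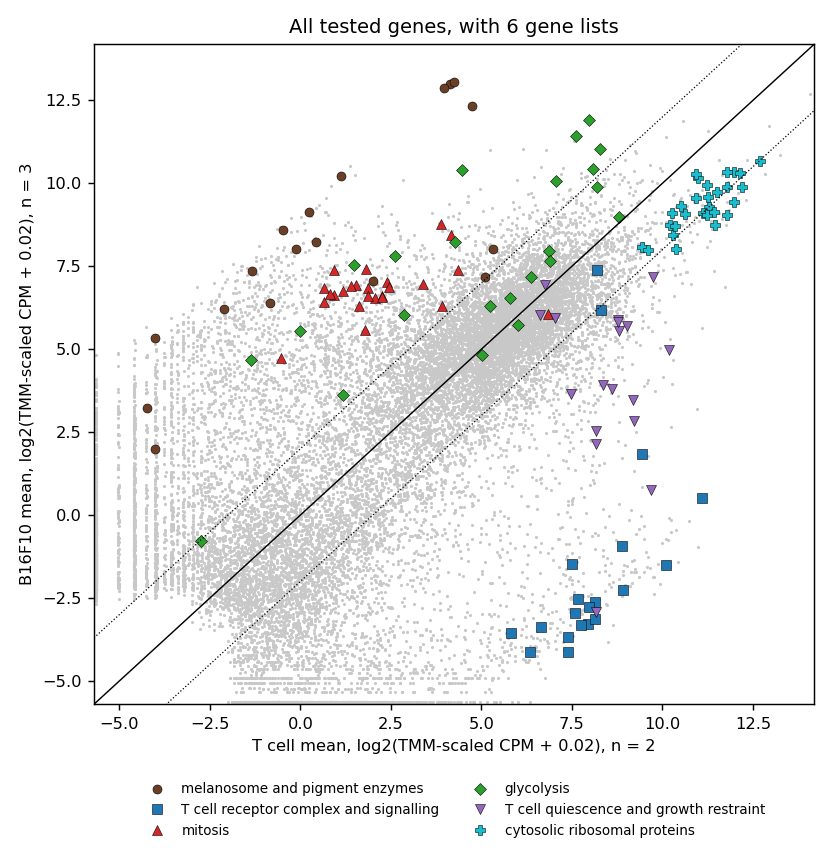
Mean of the 3 B16F10 libraries against the mean of the 2 T cell libraries, log2(TMM-scaled CPM + 0.02), for all 18352 genes tested, with 6 gene lists in colour. Pigment genes lie far above the diagonal, T cell receptor genes far below it, and ribosomal protein genes form a compact group below it at the high end.

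Glycolysis stood at a higher share of the RNA in B16F10. Of 22 genes 18 were higher and the other 4 did not pass, against 35.8% of all genes that were higher, with a median of 2.61 (2.65 and 2.51 against the T cell libraries apart). Their summed level was 15074 to 16680.0 CPM in B16F10 and 2370.0 and 2568 CPM in the T cells. Gapdh stood at 3980.3, 3807 and 3795 CPM against 248 and 251 CPM (log2 difference 3.95, SE 0.23, adjusted p = 3.88e-05). Tpi1, triose phosphate isomerase, stood at 1478, 1269 and 1293 against 21.8 and 22.7 CPM (log2 difference 5.92, SE 0.23, adjusted p = 1.25e-05). Pkm, pyruvate kinase, stood at 2271, 1989 and 2058 against 314 and 303 CPM (log2 difference 2.77, SE 0.21, adjusted p = 9.28e-05). The T cell libraries were alike in these genes and far below every B16F10 library. Gapdh and Tpi1 lie on chromosome 6, as does Hk2 of the next paragraph. Genes of that chromosome stood higher in B16F10 as a group (median 1.24), and the part of this in the glycolysis list was not tested.

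Entry into and exit from the pathway differed by isoform. Hk2, the inducible hexokinase, stood at 177, 186 and 189.8 CPM against 2.2 and 3.39 CPM (log2 difference 6.04, SE 0.27, adjusted p = 1.75e-05), whereas the housekeeping Hk1 stood at 247, 249 and 250.1 against 137 and 95.9 CPM (log2 difference 1.10, SE 0.19, adjusted p = 0.00333). Ldhb, the lactate dehydrogenase chain of oxidative tissue, stood at 252, 207 and 216 against 6.53 and 5.75 CPM (log2 difference 5.19, SE 0.20, adjusted p = 1.25e-05). Ldha, the chain of glycolytic tissue, stood at 1045, 884 and 907 against 250.5 and 339.99 CPM (log2 difference 1.68, SE 0.22, adjusted p = 0.000986). The glucose transporter gene Slc2a1 stood at 81.7, 79.1 and 75.5 against 34.6 and 40.6 CPM (log2 difference 1.07, SE 0.15, adjusted p = 0.00128). Slc2a3, the transporter of lymphocytes and neurons, did not pass the test, at 51.3, 53.3 and 53.4 against 76.2 and 52.4 CPM with overlapping groups (log2 difference -0.29, adjusted p = 0.221). Gpi1, Pfkp and Pfkfb3 did not pass either.

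Nuclear and mitochondrial genes of the respiratory chain went in opposite directions. Of 27 nuclear-encoded subunits 21 were higher in B16F10 and the other 6 did not pass (median 1.23), and 15 of the 21 kept the call when each library in turn was left out. Ndufa4 stood at 482, 411 and 410.5 against 47.5 and 44.2 CPM (log2 difference 3.24, SE 0.18, adjusted p = 3.22e-05), Cycs, cytochrome c, at 351, 342 and 321 against 30.3 and 50.6 CPM (log2 difference 3.06, adjusted p = 0.000206), and Atp5b, the catalytic chain of ATP synthase, at 2077, 1945 and 2011 against 533 and 683 CPM (log2 difference 1.73, adjusted p = 0.000759). Sdha, the flavoprotein of complex II, did not pass, at 279, 274 and 273 against 288 and 285 CPM (log2 difference -0.06, SE 0.14, adjusted p = 0.73), while its partner Sdhb stood at 489, 401 and 404 against 58.9 and 66.2 CPM (log2 difference 2.79, SE 0.19, adjusted p = 6.43e-05).

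Of the 13 protein genes of the mitochondrial genome, 11 were lower in B16F10 and the other 2 did not pass (median -1.57; -1.19 and -1.57 against the T cell libraries apart). mt-Co1, a catalytic subunit of cytochrome oxidase, stood at 1735, 2251 and 1584 CPM against 7362 and 12118 CPM (log2 difference -2.39, SE 0.32, adjusted p = 0.00109), and mt-Nd5 of complex I at 362, 572 and 401 against 1844 and 1905 CPM (log2 difference -2.07, SE 0.25, adjusted p = 0.000695). Both T cell libraries lay above all B16F10 libraries. The summed level of the list was 4449 to 6252 CPM in B16F10, 15748 CPM in T cell library 1 and 22204 CPM in library 2.

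Enzymes of the pentose phosphate pathway and of NADPH supply were higher for 11 of 16 genes, and the other 5 did not pass (median 1.74). Me1, malic enzyme, stood at 83.1, 83.7 and 82.6 against 0.572 and 0.245 CPM (log2 difference 7.65, SE 0.38, adjusted p = 2.37e-05). G6pdx, which opens the pentose phosphate pathway, stood at 212, 216 and 215 against 35.4 and 23.3 CPM (log2 difference 2.87, SE 0.23, adjusted p = 0.000137), and the next oxidative enzyme Pgd at 307, 264 and 269 against 71.6 and 51.4 CPM (log2 difference 2.19, adjusted p = 0.000283). The cytosolic and mitochondrial isocitrate dehydrogenases Idh1 and Idh2 had differences of 3.72 and 3.44. The non-oxidative enzymes Rpe and Rpia and the lactonase Pgls did not pass, with log2 differences of 0.75, 0.10 and -0.19.

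Cholesterol synthesis was higher nearly throughout, for 20 of 22 genes (median 2.51). Sqle, squalene epoxidase, stood at 226, 229.6 and 238 against 7 and 4.35 CPM (log2 difference 5.35, SE 0.28, adjusted p = 2.95e-05). Cyp51, a sterol demethylase, stood at 421, 409.6 and 422 against 24.6 and 25.5 CPM (log2 difference 4.06, SE 0.17, adjusted p = 1.33e-05). Dhcr7, a late sterol reductase, stood at 214, 217 and 222 against 19.7 and 16 CPM (log2 difference 3.60, SE 0.18, adjusted p = 2.11e-05). Srebf2, the transcription factor that drives these genes, did not pass, at 274, 303 and 316 against 339.7 and 338 CPM (log2 difference -0.19, SE 0.15, adjusted p = 0.303). Tm7sf2, a sterol reductase, was the other gene that did not pass: T cell library 1 at 22 CPM lay above B16F10 (12, 11.3 and 10.7 CPM) and library 2 at 4.66 CPM below it.

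Of the genes of fatty acid synthesis and oxidation, Scd2, the stearoyl desaturase of many tissues, stood at 1941, 2083 and 2111 against 44.4 and 31.2 CPM (log2 difference 5.76, SE 0.29, adjusted p = 2.43e-05), and Fads2, which makes polyunsaturated chains, at 171, 188 and 203 against 0.636 and 0.513 CPM (log2 difference 8.34, SE 0.24, adjusted p = 8.33e-06). Fasn, fatty acid synthase, stood at 1224, 1450.5 and 1519.6 against 188 and 115 CPM (log2 difference 3.20, SE 0.30, adjusted p = 0.000266). In all, 12 of 18 genes were higher and 2 lower (median 1.54). Of those lower, the call of Slc25a20, the carnitine carrier of mitochondria, ended without any 1 B16F10 library (adjusted p = 0.107 to 0.146) and without T cell library 2 (adjusted p = 0.0705), where the count lower was 4. The elongase Elovl5 was lower, at 125, 134 and 139 against 223 and 226 CPM (log2 difference -0.76, SE 0.13, adjusted p = 0.00313). Cpt1a, which admits fatty acids to mitochondria, did not pass (log2 difference -0.86, adjusted p = 0.061), with 42.5, 45.1 and 46.7 CPM in B16F10 and 113 and 49.2 CPM in the T cells.

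Serine, glycine and folate enzymes were called higher for 15 of 19 tested genes and lower for 3 (median 1.58), but 9 of the 18 calls held without each library in turn. The median was 1.70 against T cell library 1 and 1.11 against library 2. Asns, asparagine synthetase, stood at 278, 259 and 262 against 4.66 and 16.6 CPM (log2 difference 4.65, SE 0.60, adjusted p = 0.000908). Psat1, of the serine pathway, stood at 266, 275 and 279.6 against 12.7 and 22.2 CPM (log2 difference 3.97, SE 0.30, adjusted p = 0.000105). Mthfd2, a mitochondrial folate enzyme, stood at 389, 369.6 and 376 against 32.8 and 175 CPM (log2 difference 1.87, SE 0.67, adjusted p = 0.045), with differences of 3.51 and 1.11 against the T cell libraries apart, and its call ended without any 1 B16F10 library (adjusted p = 0.0925 to 0.142). Phgdh, the first enzyme of serine synthesis, did not pass, at 310.4, 264 and 274 against 52.9 and 176 CPM (log2 difference 1.30, SE 0.49, adjusted p = 0.0535).

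Nucleotide synthesis was mixed, with 12 higher and 6 lower of 20 genes (median 0.73). The calls of Paics, Gmps and Dhodh (higher) and of Adss and Prps2 (lower) ended without any 1 B16F10 library. Related genes split between the cell types. Ctps, a CTP synthase, stood at 96, 97.6 and 95.6 CPM in B16F10 against 10.3 and 12.6 CPM (log2 difference 3.08, SE 0.17, adjusted p = 3.25e-05), and the second CTP synthase Ctps2 at 16.1, 15.2 and 15.5 against 154 and 118 CPM (log2 difference -3.13, SE 0.17, adjusted p = 3.22e-05). Impdh1, a guanine nucleotide enzyme, was lower (24.6, 24.8 and 23.8 against 123 and 99.6 CPM, log2 difference -2.19, SE 0.15, adjusted p = 7e-05), while Impdh2 did not pass (127, 117 and 119.95 against 97.3 and 139.9 CPM, log2 difference 0.03, adjusted p = 0.881). Thymidine salvage in dividing cells uses Tk1, which stood at 129, 109 and 112 against 8.73 and 3.57 CPM (log2 difference 4.24, SE 0.43, adjusted p = 0.000365). Deoxycytidine kinase, Dck, which salvages nucleosides in lymphocytes, stood at 38.7, 40.6 and 42.5 against 119.6 and 115 CPM (log2 difference -1.53, SE 0.13, adjusted p = 0.000167). The paired enzymes of salvage thus lay on opposite sides.

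Proliferation genes were higher in B16F10. DNA replication had 26 of 28 genes higher (median 2.58), and mitosis 24 of 25 higher and 1 lower (median 4.75; 4.25 and 5.08 against the T cell libraries apart). Mki67, the Ki-67 antigen of cycling cells, stood at 297, 384 and 370.1 CPM in B16F10 and 19.2 and 16.3 CPM in T cells (log2 difference 4.30, SE 0.22, adjusted p = 2.65e-05). Cdk1, the mitotic kinase, stood at 179, 162 and 162 against 2.44 and 1.36 CPM (log2 difference 6.46, SE 0.33, adjusted p = 2.63e-05), and Top2a, the topoisomerase of dividing chromosomes, at 421, 455 and 452 against 19.3 and 10 CPM (log2 difference 4.91, SE 0.36, adjusted p = 9.28e-05). T cell library 1 was above library 2 in each of these, and both were far below B16F10.

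Replication factors differed in size. Mcm10 and Rrm2, a replication initiator and the small chain of ribonucleotide reductase, had log2 differences of 6.46 and 5.88, while Pcna, the polymerase clamp, stood at 385, 361 and 357 against 113 and 144 CPM (log2 difference 1.51, SE 0.18, adjusted p = 0.00057). Mcm7, a subunit of the replicative helicase, and Cdt1, which loads it, did not pass. Mcm7 stood at 185, 181 and 184 CPM in B16F10 and 138 and 254 CPM in the T cells (log2 difference -0.10, adjusted p = 0.76), so that the B16F10 values lay between the T cell values. Cenpa, the histone of centromeres, was the mitosis gene that was lower in B16F10, at 69.9, 62.8 and 66.2 against 114 and 116 CPM (log2 difference -0.79, SE 0.13, adjusted p = 0.00245).

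The cyclins and inhibitors that control entry into the cycle were split, with 11 of 19 tested genes higher and 5 lower (median 0.98). Ccnd1, cyclin D1 in common naming, stood at 170.3, 208 and 212 CPM against 0.954 and 0.379 CPM (log2 difference 8.20, SE 0.46, adjusted p = 3.61e-05), and the kinase gene Cdk4 at 359, 324 and 337 against 64.6 and 64.7 CPM (log2 difference 2.39, SE 0.15, adjusted p = 5.27e-05). Cdkn1b, an inhibitor that holds resting T cells, was lower in B16F10, at 147, 144 and 146 against 781 and 927 CPM (log2 difference -2.55, SE 0.16, adjusted p = 4.96e-05). Cdkn1a, an inhibitor induced by p53, was higher, at 304, 256 and 261 against 4.49 and 11.1 CPM (log2 difference 5.13, SE 0.46, adjusted p = 0.000225). Cdkn2a, the inhibitor lost in many melanomas, had too few counts in either cell type to be tested, with at most 0.0446 CPM in a library. Myc stood at 56.5, 55.5 and 56.2 against 30.3 and 26.5 CPM (log2 difference 0.98, SE 0.15, adjusted p = 0.00166).

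Genes that restrain growth in resting T cells were lower for 17 of 18 members (median -4.14). Btg1, an antiproliferative RNA decay factor, stood at 30.8, 32.8 and 31 against 802 and 1519 CPM (log2 difference -5.20, adjusted p = 4.79e-05). Its relative Btg2 stood at 6.43, 6.51 and 4.49 against 244 and 330.2 CPM (log2 difference -5.63, adjusted p = 1.91e-05). Pik3ip1, an inhibitor of PI3 kinase, stood at 13.9, 13.1 and 14.4 against 359 and 424 CPM (log2 difference -4.82, adjusted p = 9.55e-06), and Txnip, which limits glucose uptake and thioredoxin, at 54.8, 55.4 and 60 against 524 and 357 CPM (log2 difference -2.96, SE 0.20, adjusted p = 7.56e-05). Vsir, which encodes the checkpoint receptor VISTA, stood at 0.199, 0.0781 and 0.0612 against 358 and 216 CPM. Tob1, another antiproliferative gene, did not pass (117, 126 and 125 against 104 and 113 CPM, log2 difference 0.18, adjusted p = 0.268).

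Making ribosomes and ribosomal protein transcripts moved apart. Ribosome biogenesis factors were higher in B16F10 for 18 of 25 genes, with 7 that did not pass (median 1.38), for example Nop2, an RNA methyltransferase, at 273, 269 and 274 against 31.7 and 39.1 CPM (log2 difference 2.94, SE 0.17, adjusted p = 3.84e-05), and Polr1a, of RNA polymerase I, at 224, 241 and 247 against 40.7 and 29.2 CPM (log2 difference 2.76, SE 0.21, adjusted p = 0.000104). Ncl (nucleolin) and Npm1 (nucleophosmin), abundant nucleolar proteins, did not pass. Npm1 stood at 1203, 1069.7 and 1047 against 795 and 1569.9 CPM (log2 difference -0.10, adjusted p = 0.799), again with T cell libraries on either side of B16F10.

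Ribosomal protein genes were lower for 27 of 28 members (median -1.72). The difference depended on the library: the median was -1.19 against T cell library 1 and -2.11 against library 2. The summed level was 19446 to 23338 CPM in B16F10, 46757 CPM in library 1 and 96678 CPM in library 2. Rpl5 stood at 595, 498 and 486 against 2139.9 and 4899 CPM (log2 difference -2.74, SE 0.37, adjusted p = 0.00118), and Rps27 at 184, 157 and 153 against 1669 and 3881 CPM (log2 difference -4.08, SE 0.39, adjusted p = 0.000277). Rpl32 did not pass, at 1376, 1179.8 and 1169 against 1346 and 2549 CPM (log2 difference -0.65, adjusted p = 0.102). These genes have many near-identical pseudogenes, and how reads matching several places were counted is not given in the sources used here, so values of single ribosomal genes are uncertain. T cell library 2 lay above library 1 by a median of 1.00 (log2) for them, and what set the libraries apart was not tested.

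**Figure D3:**
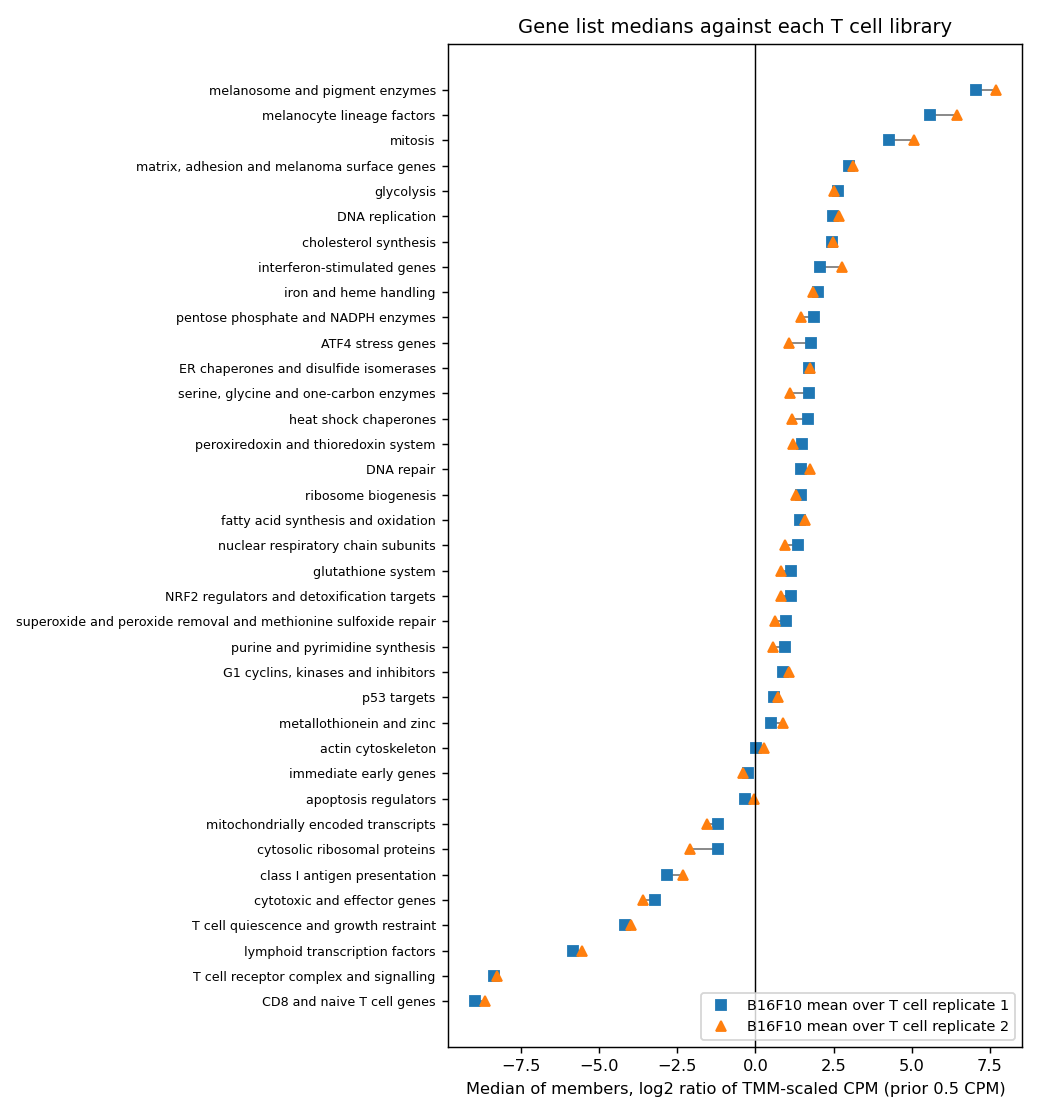
Median log2 ratio of TMM-scaled CPM (prior 0.5 CPM) for each gene list, with squares for the B16F10 mean over T cell library 1 and triangles for that over library 2. Pigment genes are highest and T cell genes lowest, and the squares and triangles lie on the same side of 0 for each list shown.

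Among the defences against oxidants, the glutathione list was mixed, with 15 of 28 genes higher in B16F10 and 5 lower (median 1.17; 1.14 and 0.81 against the T cell libraries apart). Slc7a11, the cystine importer that feeds glutathione synthesis, stood at 118, 160.2 and 157 CPM against 1.34 and 1.92 CPM (log2 difference 6.48, SE 0.30, adjusted p = 1.99e-05). Gclm, the modifier of glutamate-cysteine ligase, stood at 97.5, 106 and 109 against 33.7 and 39.3 CPM (log2 difference 1.51, SE 0.16, adjusted p = 0.000335), but its catalytic partner Gclc did not pass, at 66.9, 78.5 and 78.5 against 97.5 and 60.6 CPM (log2 difference -0.08, adjusted p = 0.765). Gsr, which recycles glutathione, stood at 102, 108 and 112 against 36.2 and 39 CPM (log2 difference 1.52, SE 0.14, adjusted p = 0.000238). The higher genes thus included import and recycling, but not the catalytic subunit of synthesis.

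Glutathione peroxidases and transferases split by member. Gpx4, which removes lipid peroxides, did not pass, at 185, 155 and 159.8 against 101 and 210.2 CPM (log2 difference 0.10, adjusted p = 0.795). Gpx1, the main cytosolic peroxidase, did not pass either, at 58.3, 51.2 and 50.2 against 47.2 and 109.8 CPM (log2 difference -0.56, adjusted p = 0.191). In both genes the T cell libraries lay on either side of the B16F10 values. Gpx8, of the endoplasmic reticulum, stood at 48.1, 42.3 and 39.8 against 0.254 and 0 CPM (log2 difference 8.36, SE 0.78, adjusted p = 0.000247). With no count in T cell library 2, the size of the Gpx8 difference rests on low counts. Of the microsomal transferases, Mgst1 was higher, at 38.8, 38 and 36.1 against 0.339 and 0.134 CPM (log2 difference 7.29, SE 0.39, adjusted p = 3.17e-05), and Mgst2 lower, at 0.55, 0.234 and 0.652 against 86.2 and 34.7 CPM (log2 difference -6.97, SE 0.58, adjusted p = 0.000157). Neither of these groups overlapped. Gstm1 and Gsta4, soluble transferases, had differences of 5.78 and 7.43.

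Peroxiredoxins and thioredoxins had 13 of 18 genes higher and 2 lower (median 1.47). The calls of Prdx3, Txn2 and Txndc12 (higher) ended without any 1 B16F10 library, and that of Nxn (higher) without B16F10 library 1 or 2. Prdx1, the main cytosolic peroxiredoxin, stood at 1287, 1120.1 and 1092 against 79.6 and 95.4 CPM (log2 difference 3.74, SE 0.22, adjusted p = 3.92e-05). Srxn1, which restores overoxidised peroxiredoxins, stood at 138, 142 and 138 against 1.34 and 0.446 CPM (log2 difference 7.28, SE 0.50, adjusted p = 7.43e-05). Txnrd1, thioredoxin reductase, stood at 448, 498 and 486 against 58.9 and 36.4 CPM (log2 difference 3.32, SE 0.27, adjusted p = 0.000145), and its substrate Txn1 at 556, 483 and 476 against 52 and 55.6 CPM (log2 difference 3.23, adjusted p = 3.25e-05). Prdx6 was lower in B16F10, at 205, 176 and 174 against 268 and 373 CPM (log2 difference -0.79, SE 0.19, adjusted p = 0.0118), but this call ended without B16F10 library 2 (adjusted p = 0.055) or library 3 (adjusted p = 0.0554). Txnip, the inhibitor of thioredoxin, was the other gene lower in B16F10.

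Of the enzymes that remove superoxide and peroxide or repair oxidised methionine, 8 of 12 were higher and 2 lower (median 0.78), and 6 of these 10 calls held without each library in turn. Sod1, the cytosolic superoxide dismutase, stood at 259, 214 and 215 against 130.2 and 213 CPM and did not pass (log2 difference 0.42, SE 0.25, adjusted p = 0.173). Cat (catalase) stood at 96.9, 105 and 103 against 76.2 and 69.4 CPM (log2 difference 0.48, SE 0.14, adjusted p = 0.0203). Sod2, the mitochondrial dismutase, stood at 69.7, 68.5 and 69 against 50.1 and 44.7 CPM (log2 difference 0.54, SE 0.14, adjusted p = 0.0137). These calls ended without any 1 B16F10 library (adjusted p = 0.0759 to 0.141 for Cat and 0.074 to 0.0983 for Sod2), and so did that of Msra, a methionine sulfoxide reductase gene and one of the 2 lower (adjusted p = 0.0912 to 0.121). Pon3, a lactonase bound to lipoproteins and membranes, had the largest difference of this list, at 39.3, 43.8 and 45.9 against 1.44 and 1.27 CPM (log2 difference 4.98, SE 0.21, adjusted p = 1.4e-05).

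NRF2, encoded by Nfe2l2, is the transcription factor that answers electrophiles and oxidants, and KEAP1 holds it back. Keap1 did not pass, at 45.5, 44.8 and 47.4 against 45.2 and 56 CPM (log2 difference -0.14, adjusted p = 0.447), and Nfe2l2 itself stood at 113, 115 and 108 against 80.8 and 80.3 CPM (log2 difference 0.48, SE 0.13, adjusted p = 0.0172), a call that ended without any 1 B16F10 library (adjusted p = 0.108 to 0.145). The listed targets spread far more widely. Akr1b8, an aldo-keto reductase, stood at 87.7, 81.8 and 78.2 against 0.17 and 0.0446 CPM (log2 difference 9.54, SE 0.41, adjusted p = 1.65e-05). Its value in T cell library 2 lay under 3 counts (0.0669 CPM), so the size of this difference rests on low counts. By log2 of CPM plus 0.5 it was 6.96 and 7.25 against the T cell libraries apart. Hmox1, heme oxygenase, stood at 111, 104 and 109 against 2.31 and 9.29 CPM (log2 difference 4.22, SE 0.62, adjusted p = 0.00157). Nqo1, the quinone reductase often used as a target, stood at 1.47, 1.02 and 1.223 against 0.191 and 0.357 CPM (log2 difference 2.17, SE 0.48, adjusted p = 0.0075). Bach1 and Bach2, repressors at the same sites, were lower in B16F10, with Bach2 at 3.83, 4.59 and 4.65 against 333 and 244 CPM (log2 difference -6.05, SE 0.22, adjusted p = 1.14e-05) and a difference of -1.62 for Bach1. Over the list 13 of 22 tested genes were higher and 4 lower (median 1.05).

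For iron and heme 13 of 17 genes were higher and the other 4 did not pass (median 1.64). Tfrc, the transferrin receptor, stood at 391, 420.04 and 427 against 28.8 and 14.8 CPM (log2 difference 4.24, SE 0.35, adjusted p = 0.000154), Steap3, an iron reductase, at 174, 168 and 177 against 1.48 and 1.49 CPM (log2 difference 6.86, SE 0.18, adjusted p = 8.33e-06), and Fth1, the ferritin heavy chain, at 2186, 1794 and 1796 against 468 and 769 CPM (log2 difference 1.64, SE 0.29, adjusted p = 0.00333). Import and storage genes were thus both higher, and so was the exporter Slc40a1 (13, 12.9 and 12.8 against 0.424 and 0.446 CPM). Metallothioneins bind zinc and copper, and 6 of 11 genes of metal handling were higher and 3 lower, of which 6 of the 9 calls held without each library in turn. Mt1 stood at 648, 512 and 499.5 against 5.85 and 18.9 CPM (log2 difference 5.48, SE 0.61, adjusted p = 0.000497) and Mt2 at 50.6, 41.4 and 39.6 against 0.551 and 0.847 CPM (log2 difference 5.97, SE 0.30, adjusted p = 2.61e-05). The zinc importer gene Slc39a4 was lower (log2 difference -5.78, adjusted p = 5.59e-05). Mtf1, the zinc sensor that drives the metallothionein genes, was lower too, at 29.1, 33.4 and 32.4 against 53.3 and 49.2 CPM (log2 difference -0.70, adjusted p = 0.00654).

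Chaperones were higher for 22 of 27 heat shock genes and lower for 2 (median 1.40). Of those lower, the call of Hsf1, the heat shock factor, ended without any 1 B16F10 library (adjusted p = 0.0688 to 0.133). Of the small heat shock genes, Cryab stood at 439, 399.5 and 386 against 0.975 and 0.334 CPM (log2 difference 9.27, SE 0.52, adjusted p = 3.72e-05), and Hspb1 at 76, 62.3 and 61.8 against 1.14 and 1.38 CPM (log2 difference 5.72, SE 0.24, adjusted p = 1.4e-05). Hsp90aa1, the inducible HSP90, stood at 2559, 2472 and 2411 against 166 and 213 CPM (log2 difference 3.71, SE 0.24, adjusted p = 5.49e-05), and Hspd1, the mitochondrial chaperonin, at 1464, 1474 and 1428 against 88 and 111 CPM (log2 difference 3.87, SE 0.23, adjusted p = 3.62e-05). Hspa8, the constitutive HSP70, stood at 2731, 2719.5 and 2689.7 against 730.1 and 1466 CPM (log2 difference 1.31, SE 0.34, adjusted p = 0.0146), but this call ended without any 1 B16F10 library (adjusted p = 0.066 to 0.0856). The inducible copies Hspa1a and Hspa1b are near identical in sequence and went in opposite directions (-3.10 and 1.16), so their values are uncertain.

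In the endoplasmic reticulum, 16 of 23 genes were higher and 1 lower (median 1.73). Hspa5 (BiP), the main chaperone there, stood at 1737, 1679 and 1713 against 311 and 434 CPM (log2 difference 2.20, SE 0.23, adjusted p = 0.000392), and the disulfide isomerase gene Pdia4 at 766, 758 and 774 against 76.2 and 94.6 CPM (log2 difference 3.17, SE 0.20, adjusted p = 4.63e-05). Xbp1, a transcription factor of the folding response, did not pass and lay between the T cell libraries, at 159, 155 and 163 against 99.9 and 217 CPM (log2 difference 0.00, adjusted p = 0.997). The sensor Ern1 and the degradation factors Edem1, Herpud1 and Sel1l did not pass either.

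Genes answering to ATF4, the factor of the amino acid and stress response, depended on which T cell library was used. Atf4 itself stood at 360.4, 319 and 325 CPM in B16F10, 206 CPM in T cell library 1 and 847 CPM in library 2, so the log2 difference was 0.70 against library 1 and -1.34 against library 2 and did not pass as a whole (log2 difference -0.65, adjusted p = 0.31). Trib3, a pseudokinase target, was split the same way, at 63.7, 55.1 and 61.5 against 17.3 and 71.5 CPM, and so was Ddit3 (CHOP), at 51.6, 45 and 44.3 against 36.5 and 109.8 CPM. Over the list 15 of 27 genes were higher and 6 lower. The calls of Atf3, Sesn2, Slc7a5, Aars and Eif2ak4, all higher, ended without any 1 B16F10 library. The list median was 1.77 against T cell library 1 and 1.07 against library 2. Chac1, which degrades glutathione, stood above both, at 33.5, 30.2 and 33.4 against 1.57 and 3.5 CPM (log2 difference 3.68, SE 0.39, adjusted p = 0.000413). Ppp1r15a, a phosphatase regulator that ends the response, was lower than in both, at 26.1, 24.1 and 22.1 against 72.2 and 116 CPM (log2 difference -1.96, SE 0.23, adjusted p = 0.000637).

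Targets of p53 split, with 14 of 24 higher and 10 lower (median 0.67), 18 of the 24 calls holding without each library in turn. The arrest gene Cdkn1a, given above, was joined by Phlda3, an inhibitor of AKT, at 154, 129 and 134 against 1.44 and 1.2 CPM (log2 difference 6.71, SE 0.22, adjusted p = 9.65e-06). The death genes Pmaip1 (NOXA), Bbc3 (PUMA) and Fas were lower in B16F10. Of the same list, the death genes Perp (log2 difference 4.10, adjusted p = 0.000905) and Bax were called higher, and the antiproliferative Btg2 was lower. The list thus did not divide into arrest genes and death genes. Pmaip1 had no count in B16F10 and 11.3 and 7.67 CPM in the T cells, which was at least 155-fold higher against a floor of 3 counts per library. Bbc3 stood at 13.3, 11.7 and 12.3 against 118 and 154 CPM (log2 difference -3.45, SE 0.18, adjusted p = 2.65e-05), and Fas, the death receptor, at 0.55, 0.801 and 0.775 against 18.7 and 19.7 CPM (log2 difference -4.76, SE 0.27, adjusted p = 3.37e-05).

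Regulators of apoptosis were mixed, with 9 of 24 higher (37.5%, near the 35.8% of all genes) and 12 lower (50%, against 35.4%). Their median was -0.17, which turned to 0.07 without TMM scaling. The call of Bax (higher) and those of Bcl2, Bmf, Xiap and Casp8 (lower) ended without at least 1 of the B16F10 libraries. Bcl2l1 (BCL-XL), a survival gene, stood at 87.8, 79.7 and 85.2 against 16.6 and 19.2 CPM (log2 difference 2.23, SE 0.16, adjusted p = 7.8e-05), and Birc5 (survivin), a mitotic gene as well, at 135, 114 and 111 against 3.2 and 2.05 CPM (log2 difference 5.51, adjusted p = 2.82e-05). Mcl1, another survival gene, was lower in B16F10, at 163, 154 and 153 against 646 and 606 CPM (log2 difference -1.999, SE 0.15, adjusted p = 8.25e-05). Bcl2l11 (BIM), which kills resting lymphocytes that lose cytokines, stood at 9.49, 10.6 and 11.1 against 249.7 and 319 CPM (log2 difference -4.78, SE 0.18, adjusted p = 1.25e-05). Birc3, an inhibitor induced by NF-kB, stood at 6, 5.65 and 5.55 against 119 and 141 CPM (log2 difference -4.50, adjusted p = 1.03e-05). Mcl1 and Bcl2l11, which act against each other, were thus both lower in B16F10.

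DNA repair genes were higher for 17 of 25 and lower for 2 (median 1.51). Of those lower, the call of Prkdc, a kinase of end joining, ended without any 1 B16F10 library (adjusted p = 0.0528 to 0.092) and without T cell library 1 (adjusted p = 0.0709), and the count lower was 5 without T cell library 2. Fancd2, of the Fanconi pathway, stood at 78, 90.9 and 88.9 against 1.72 and 0.713 CPM (log2 difference 6.14, SE 0.43, adjusted p = 7.95e-05). The damage kinase gene Atm did not pass, at 50.1, 72.8 and 72 against 104 and 45.4 CPM (log2 difference -0.20, adjusted p = 0.647), and T cell library 1 lay above the B16F10 values and library 2 below them. Atr, a related kinase, did not pass either (log2 difference -0.48, adjusted p = 0.117).

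Interferon-stimulated genes were higher in B16F10 for 17 of 23 members and lower for 1 (median 2.55). Rsad2 (viperin) stood at 132, 125 and 116 against 1.34 and 1.52 CPM (log2 difference 6.44, SE 0.20, adjusted p = 8.33e-06), Ifit1, a sensor of foreign RNA, at 94.3, 81.6 and 78 against 2.8 and 3.66 CPM (log2 difference 4.71, SE 0.23, adjusted p = 2.2e-05), and Bst2 (tetherin) at 264, 232 and 214 against 21 and 32.7 CPM (log2 difference 3.14, SE 0.26, adjusted p = 0.000154). Ifi44 had 7.12, 7.85 and 6.71 CPM in B16F10 and no count in the T cells, at least 108-fold against the floor. Of the factors that drive such genes, Irf9 did not pass, at 68.5, 68 and 64.3 against 74.5 and 71.6 CPM (log2 difference -0.13, adjusted p = 0.424). Irf7 did not pass either, at 22.4, 17 and 16.9 against 29.4 and 20.2 CPM (log2 difference -0.40, adjusted p = 0.18).

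Class I antigen presentation, which interferon also raises, went the other way for 14 of 16 genes (median -2.71), and the calls held without each library in turn. H2-K1, a classical class I heavy chain, stood at 124, 113 and 117 CPM against 4022 and 2782 CPM (log2 difference -4.85, SE 0.25, adjusted p = 2.54e-05). B2m, the light chain, stood at 714, 681 and 679 against 1768 and 2015 CPM (log2 difference -1.45, SE 0.18, adjusted p = 0.000702), so the light chain differed less than the heavy chain. Tap1, of the peptide transporter, stood at 35.8, 32.4 and 32.4 against 469.8 and 479 CPM (log2 difference -3.82, SE 0.15, adjusted p = 1.17e-05), and Psmb8, of the immunoproteasome, at 7.04, 5.49 and 4.77 against 143 and 122 CPM (log2 difference -4.52, SE 0.22, adjusted p = 2.37e-05). Nlrc5, the transactivator of these genes, stood at 13.2, 14.5 and 14.1 against 307 and 86.1 CPM (log2 difference -3.82, SE 0.51, adjusted p = 0.0011). Calr and Pdia3, general chaperones that also load peptides, were the 2 genes higher in B16F10 (1.72 and 1.73). H2 genes are similar in sequence, and their single values are uncertain.

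Immediate early genes, which rise within minutes of handling or signalling, were not uniformly on either side, with 5 of 23 higher and 10 lower (median -0.23, turning to 0.01 without TMM scaling), and 11 of these 15 calls held without each library in turn. Without any 1 B16F10 library the count higher fell to 3. The call of Atf3 ended each time (adjusted p = 0.0577 to 0.0955), that of Jun without library 1 (adjusted p = 0.06), and that of Klf4 without library 2 (adjusted p = 0.0876) or library 3 (adjusted p = 0.106). Fos, Egr1 and Nr4a1 did not pass. Egr1 stood at 3.16, 4.77 and 3.96 against 4.73 and 4.57 CPM (log2 difference -0.23, adjusted p = 0.501), and Nr4a1 at 21.6, 21.1 and 19.6 against 20.4 and 22.8 CPM (log2 difference -0.06, adjusted p = 0.775), with overlapping groups. Junb, an AP-1 subunit, was lower in B16F10, at 37.6, 32.3 and 33.3 against 168 and 279 CPM (log2 difference -2.699, SE 0.24, adjusted p = 0.000207). Fosl2, another subunit, stood at 19.9, 23.4 and 23.6 against 223 and 658 CPM (log2 difference -4.30, SE 0.46, adjusted p = 0.000432). In both, T cell library 2 was the higher. Ier3 was higher in B16F10, at 31.8, 25 and 26.8 against 3.5 and 1.87 CPM (log2 difference 3.37, SE 0.34, adjusted p = 0.000342).

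Matrix, adhesion and surface genes of melanoma were higher for 21 of 24 tested members and lower for 1 (median 4.197). Sparc, a secreted matrix protein, stood at 1256, 1191 and 1199 against 4.24 and 1.4 CPM (log2 difference 8.75, SE 0.63, adjusted p = 8.88e-05). Serpinh1 stood at 1505, 1403 and 1483 against 4.15 and 1 CPM (log2 difference 9.14, SE 0.78, adjusted p = 0.000176), whereas its client genes Col1a1 and Col1a2 stood at 7.35, 6.62 and 7.73 CPM and 9.53, 9.65 and 10 CPM in B16F10. The cadherins went apart. Cdh2 (N-cadherin) stood at 132, 156 and 166 against 0.615 and 0.0669 CPM (log2 difference 8.77, SE 0.73, adjusted p = 0.000156). Its value in T cell library 2 lay at the level of 3 counts, so the size of this difference rests on low counts. Cdh1 (E-cadherin) stood at 1.1, 0.899 and 1.2 against 12.8 and 9.41 CPM (log2 difference -3.38, SE 0.29, adjusted p = 0.000167). Cd44, an adhesion receptor also on memory T cells, stood at 464, 507 and 511 against 73.6 and 52.8 CPM (log2 difference 2.97, SE 0.22, adjusted p = 9.84e-05).

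Of 27 genes of the actin cytoskeleton 10 were higher and 10 lower (37.0% each, near the 35.8% and 35.4% of all genes), with a median of 0.05, whose sign turned under DESeq2's size factors (-0.01) and with a filter of 1 CPM (-0.07). Actb (beta-actin) did not pass, at 3011, 2972 and 3141 against 2794 and 2155 CPM (log2 difference 0.30, SE 0.22, adjusted p = 0.272). Coro1a, the coronin of blood cells, stood at 0.81, 0.781 and 1.18 against 1127 and 1197 CPM (log2 difference -10.30, SE 0.29, adjusted p = 8.33e-06), and Dock2, a lymphocyte activator of Rac, at 0.458, 0.43 and 0.306 against 985 and 568 CPM (log2 difference -10.91, SE 0.39, adjusted p = 1.12e-05). Tpm1, a tropomyosin of stress fibres, was higher in B16F10, at 581, 564 and 571 against 44 and 22.4 CPM (log2 difference 4.11, SE 0.35, adjusted p = 0.000182). Vcl (vinculin), of adhesion sites, stood at 77.2, 107 and 107 against 4.81 and 1.94 CPM (log2 difference 4.84, SE 0.47, adjusted p = 0.000298). The groups of Coro1a, Dock2, Tpm1 and Vcl did not overlap.

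Such changes of members were set out for 22 gene families as shares of the family's summed RPKM. Rac1, the widely expressed Rac GTPase, made up 99.8% of Rac1 and Rac2 in B16F10 (mean of 3 libraries, SD 0.0620) and 23.6% in T cells (SD 3.85, n = 2). Rac1 itself did not pass the test, at 61.0, 62.4 and 65.0 RPKM in B16F10 and 55.7 and 61.2 RPKM in T cells (log2 difference 0.10, adjusted p = 0.547). The difference lay in Rac2, the blood cell form, at 211.4 and 171.6 RPKM in the T cells and 0.0788 to 0.145 RPKM in B16F10. The plastins changed over almost wholly: Pls3 made up 97.5% (SD 0.446) in B16F10 and 0.183% (SD 0.103) in T cells, with Lcp1 as the rest. Coro1c made up 97.7% of its family in B16F10 and 1.23% in T cells.

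Signalling and metabolic families shifted in part. Pik3cd, the leukocyte PI3 kinase, made up 43.5% (SD 0.717) of its pair with Pik3ca in B16F10 and 90.1% (SD 2.42) in T cells. Akt1 made up 89.3% (SD 0.846) of the AKT genes in B16F10 and 43.4 and 36.5% in the T cell libraries. Hk2 made up 51.4% (SD 0.798) of the hexokinases in B16F10 and 3.53% (SD 1.80) in T cells, and Ldhb 33.4% (SD 0.376) of the lactate dehydrogenases against 4.33% (SD 1.25). Of the D cyclins, Ccnd1 made up 21.3 to 23.2% in B16F10 and 0.322% in T cells, Ccnd2 67.1 and 56.0%, and Ccnd3 10.4 and 43.7%. Bcl2l1 made up 79.4% (SD 2.22) of its pair with Bcl2 in B16F10 and 33.0% (SD 11.7) in T cells. Lmna made up 51.6% of its pair with Lmnb1 in B16F10 and 6.59% in T cells. In other families the same member dominated in both cell types: Eno1 made up 98.1 and 99.4 to 99.5%, Cdk4 97.0 and 90.5%, and Myh9 nearly all of its pair with Myh10.

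**Figure D4:**
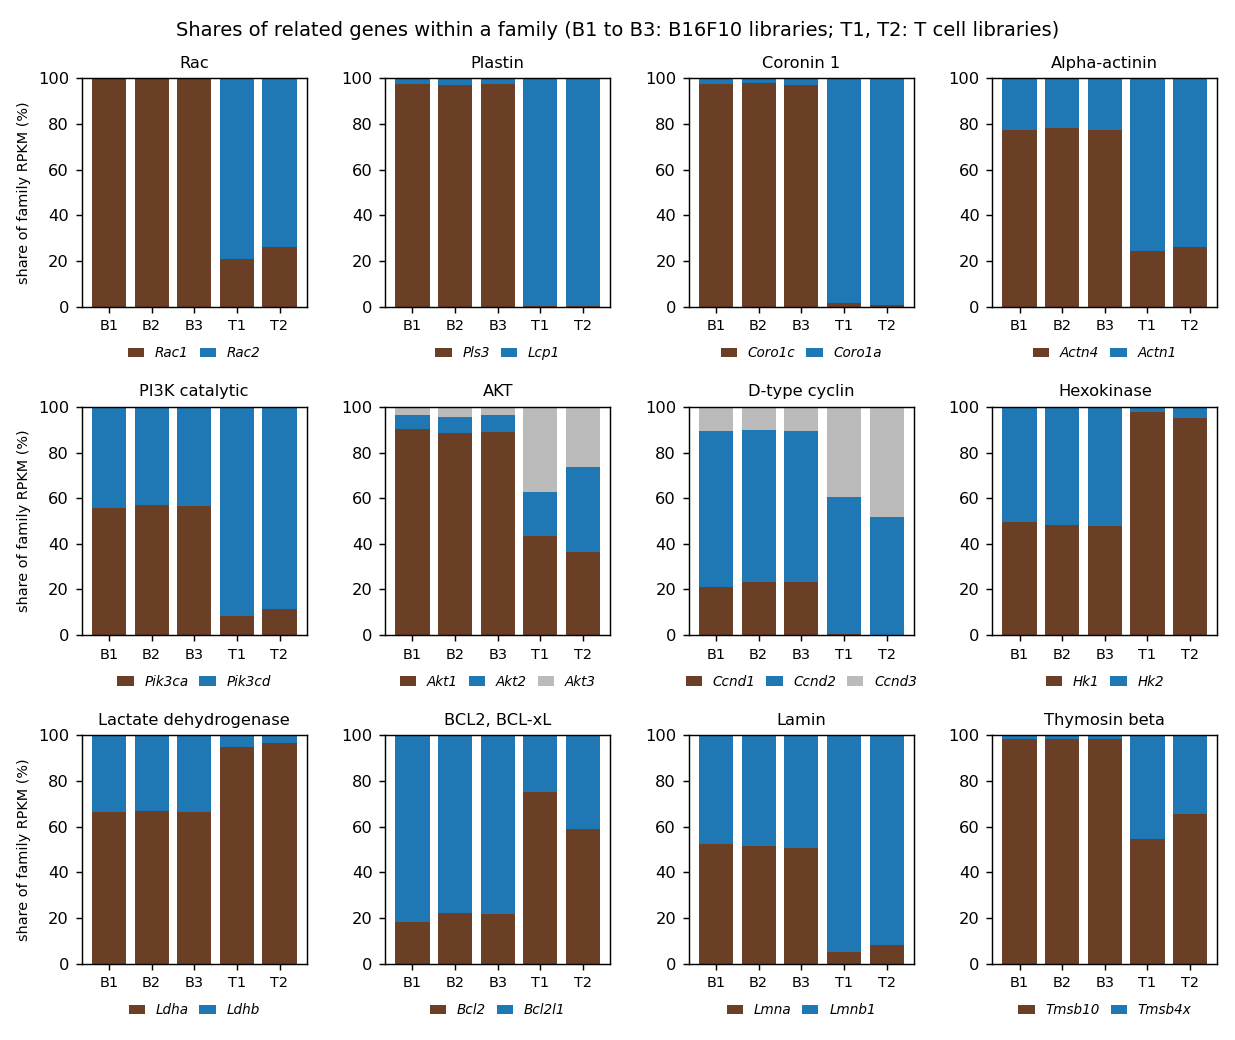
Stacked bars, for 12 families, of the share of each gene in its family's summed RPKM (percent, axis from 0 to 100) in the 3 B16F10 and 2 T cell libraries. Rac2, Lcp1 and Coro1a fill most of the bar in the T cell libraries and almost none of it in B16F10.

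Markers of other spleen cells were counted in the T cell libraries, since the cells were isolated by kit. The 14 B cell genes summed to 1847 CPM in T cell library 1 and 4229 CPM in library 2, against 3.44 to 3.94 CPM in B16F10. Most of this was immunoglobulin: Ighm stood at 1314 and 2707 CPM and Igkc at 497 and 1470.4 CPM. The defining surface genes were low, with Ms4a1 (CD20) at 0.848 and 2.27 CPM and Cd79a at 6.44 and 11.4 CPM. Class II genes followed, with Cd74 at 40.1 and 58.5 CPM and H2-Aa at 9.39 and 10.8 CPM.

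The class II and dendritic list summed to 109.98 and 144 CPM in the T cell libraries and 11.3 to 12.4 CPM in B16F10.

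Myeloid markers were few. The 14 macrophage and monocyte genes, 6 of them with enough counts to be tested, summed to 29.2 and 26.7 CPM in the T cells and 6.22 to 7.6 CPM in B16F10, with C1qa at 0 and 0.58 CPM, Adgre1 at 0.233 and 0.134 CPM and Lyz2 at 6.02 and 7.15 CPM. The 12 neutrophil genes, 5 tested, summed to 16.9 and 9.49 CPM in the T cells and 0.122 to 0.391 CPM in B16F10. Ly6g stood at 0.0424 and 0.0669 CPM and the myeloperoxidase gene Mpo at 6.87 and 6.66 CPM. The tested neutrophil genes passed the filter through the T cells alone, so their direction was fixed beforehand. The natural killer list summed to 404 and 249 CPM. Its defining gene Ncr1 stood at 0.191 and 0.0892 CPM, while Klrd1, which CD8+ T cells also express, stood at 300.3 and 138 CPM. The list of CD4 and regulatory T cells summed to 149 and 206 CPM, of which Cd4 stood at 0.0424 and 0.223 CPM and Foxp3, the factor of regulatory T cells, at 1.7 and 0.446 CPM. The checkpoint receptor gene Ctla4 of that list stood at 16.4 and 40.7 CPM and Izumo1r, a folate receptor family gene of regulatory T cells, at 6.66 and 13.7 CPM. Erythroid and platelet genes summed to 23.3 and 23.7 CPM, with the haemoglobin gene Hbb-bs at 0.784 and 6.06 CPM and the platelet integrin gene Itga2b at 18.4 and 4.99 CPM, so that the first was higher in library 2 and the second in library 1. The fibroblast and endothelial list summed to 787 and 538 CPM, nearly all from Thy1 (617 and 378 CPM) and Pecam1 (168 and 158 CPM), which T cells express themselves. The part of any of these cells in the results above was not tested. Of the same list, Pdgfrb, a receptor of mesenchymal cells, was higher in B16F10, at 24.9, 25 and 26.2 CPM against 0.509 and 0.736 CPM (log2 difference 5.35, SE 0.27, adjusted p = 2.26e-05).

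The T cell libraries differed from each other in named genes. Of 13045 genes with at least 50 counts in the higher library, 1025 (7.86%) were at least 2-fold higher in library 2 and 1768 (13.6%) at least 2-fold lower, and with 1 library a side there is no test. Higher in library 2 were Lars2, a mitochondrial leucine tRNA ligase (96 and 931 CPM), Crem, a cAMP-responsive factor (61 and 368 CPM), Mthfd2 (32.8 and 175 CPM), Atf4 (206 and 847 CPM), and Mzb1 of antibody-secreting cells (4.22 and 23.2 CPM). Of the ATF4 genes 12 of 27, and of the ribosomal protein genes 15 of 28, were at least 2-fold higher in library 2, against the 7.86% of all genes.

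Lower in library 2 were Leng8 (685 and 60.8 CPM), Gabbr1, a GABA receptor chain (372 and 48.3 CPM), Rgs11 (29.6 and 1.78 CPM) and Kifc2, a kinesin (39.9 and 3.25 CPM). Of the pigment genes 6 were at least 2-fold lower as well. Noncoding RNAs chosen after their values were seen also split. Xist, the RNA that silences an X chromosome in females, stood at 583 and 75.8 CPM in T cell libraries 1 and 2 and at most 0.535 CPM in B16F10. Malat1, a nuclear RNA, stood at 1680.3 and 925 CPM and Neat1, of nuclear paraspeckles, at 256 and 50.5 CPM, both lower in library 2. Snhg1, a host of small nucleolar RNAs, stood at 43.6 and 403 CPM, and Gas5, another host, at 254 and 637 CPM, both higher in library 2. Malat1, Neat1 and Xist thus ran opposite to the hosts of small nucleolar RNAs. What set the libraries apart was not tested.

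**Figure D5:**
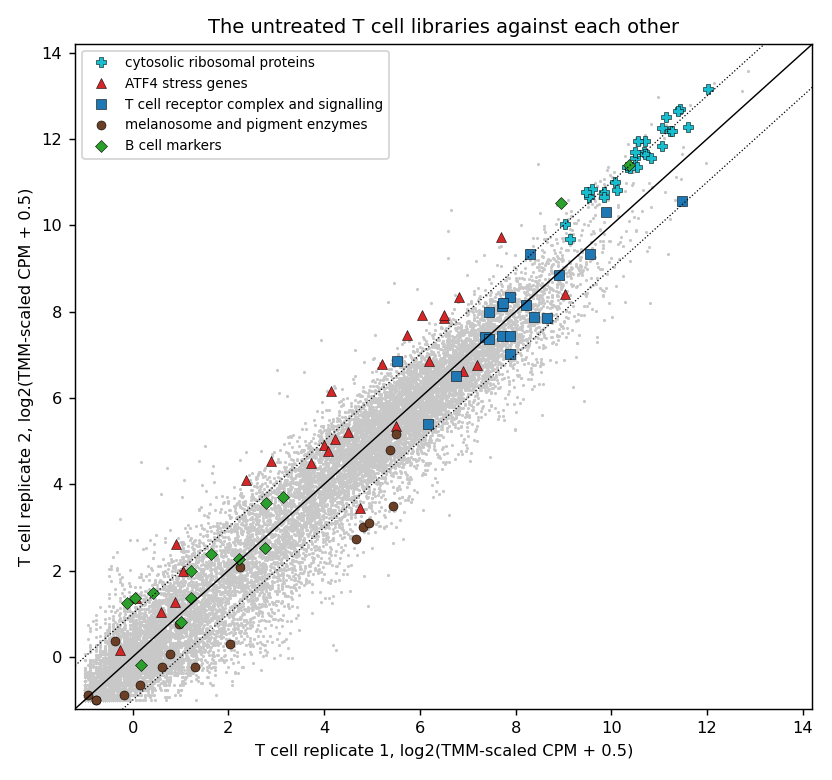
T cell library 2 against library 1, log2(TMM-scaled CPM + 0.5), for the tested genes, with the diagonal and dotted lines at 2-fold and gene lists in colour. Ribosomal protein and ATF4 genes lie mostly above the diagonal.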

How the data were processed

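RNA was extracted with a column kit and sequenced with Illumina protocols, per the labels' protocols. The authors deposited 1 raw count of reads per gene for each library (54838 genes). FastQC 0.11.8, STAR 2.7.1a, featureCounts 1.6.0, DESeq2 1.22.2 and the build mm10 are named in the submitters' processing notes. For the annotation release, the strand setting and reads that match more than 1 place, the sources used here give no statement, so antisense and overlapping genes cannot be told apart and near-identical copies are uncertain. The 5 untreated libraries were analysed, and the HOCl libraries and the authors' own comparisons were not used outside 1 alternative.

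Counts were filtered with filterByExpr, which left 18352 genes, scaled by TMM and tested with edgeR 4.0.16 in R 4.3.3 (robust quasi-likelihood F test of cell type, residual df 3) with Benjamini-Hochberg adjustment and a threshold of 0.05. This is an adjusted p-value, and a stricter count added a 4-fold difference and CPM ranges that did not overlap. Differences against each T cell library alone used log2 of CPM plus 0.5. The GENCODE M21 gene models (GRCm38) gave exon lengths and positions for 54809 genes. Genes with no count in a group were bounded with a floor of 3 counts per library, which covers counting error only. That floor was 0.0458 to 0.0669 CPM, depending on the library.

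The 45 gene lists and 22 families were chosen with earlier results of these data known. Named genes were 6 markers, per direction the 12 protein-coding genes highest per length among those at least 4-fold apart, up to 4 called members per list and direction by size of difference with at least 50 mean counts, the families, and per direction the 10 genes with the largest ratio between the T cell libraries (at least 200 counts). Other members, among them those that did not pass and those of well-known role, were named after their values were seen. Alternatives were other scalings (DESeq2's size factors, none), filters (1 CPM in 2 libraries, none), DESeq2 1.42.0, glmTreat against a 2-fold change, all 9 libraries, a replicate block and leaving out each library.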

Additional observations from a re-analysis of the deposited data

How the results depend on the processing

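The counts of genes higher in B16F10 (6561) and genes lower in B16F10 (6490) stayed within 1.5-fold under every alternative run. Leaving out each library gave 5344 to 7837 higher and 5588 to 7589 lower, and glmTreat against 2-fold gave 4723 and 4362. The replicate block gave 5320 higher and 4763 lower. The replicate numbers were not treated as a pairing, since they only name libraries. Deviations of same-numbered B16F10 and T cell libraries correlated at r = -0.260 and -0.227. With 2 T cell libraries the deviations of each mirror those of the other, so these values cannot settle whether a pairing exists. Without TMM the median difference of all genes moved from -0.02 to 0.22 and the share of calls that were higher from 50.3 to 56.0%. There the median against T cell library 1 was 0.14 and against library 2 it was 0.30 (-0.010 with DESeq2's size factors). The genes at least 2-fold higher than 1 T cell library and at least 2-fold lower than the other were 12, against 7. Of 690 called list members, 154 lost the call under at least 1 alternative and 0 changed sign (edgeR and DESeq2). The block ended 90 of these calls, glmTreat 149, DESeq2 itself 3, and leaving out a B16F10 library 66 to 75. Phyhd1, named for its ratio between the T cell libraries, turned from lower in B16F10 to 0.16 (log2) without T cell replicate 1, against -3.98 without replicate 2. The depth limits genes at under about 3 counts per library, for which direction and size were not detectable.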

Other observations

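Genes of chromosome 6 stood higher in B16F10 as a group. The median log2 difference of its 701 tested protein-coding genes was 1.24, with 403 genes (57.5%) higher and 155 (22.1%) lower. On the other autosomes and the X chromosome the median lay between -0.44 (chromosome 17) and 0.49 (chromosome 18). Against the T cell libraries apart, by log2 of CPM plus 0.5, the chromosome 6 median was 1.03 and 1.05. Among the 328 of these genes with at least 10 CPM in both cell types it was 0.77, where the other chromosomes lay between -0.49 and 0.15. In windows of 10 Mb (GRCm38) it ran from -0.90 at 130 to 140 Mb to 3.24 at 10 to 20 Mb, a window of 19 genes. Genes named above as higher that lie on chromosome 6 include Gapdh, Tpi1, Hk2, Ndufa4, Cycs, Nop2, Polr1a and Pdia4. They also include Gpnmb, Met, Asns, Pon3, Akr1b8, Mgst1 and Fancd2, so examples of many of the lists lie there. Among those named as lower, Cd8a, Impdh1 and Cdkn1b lie there too. The pattern was noticed in the data, and neither its cause nor its part in the gene lists was tested.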
